A study of Mus musculus with 2 samples.

Results

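The Foxl2 locus was examined in the open chromatin of whole mouse ovary. It was taken as the Foxl2 gene (ENSMUSG00000050397.4, plus strand, chromosome 9, 98955288 to 98958543, build GRCm38) and 100 kb either side, and every peak that overlapped this stretch of 203 kb was a member. Replicate 1 had 9 such peaks and replicate 2 had 8. They formed 5 sites found in both libraries, of 64903 such shared regions in the whole genome, and 7 peaks found in a single library. The animals were female B6CASTF1/J mice, first-generation hybrids of C57BL/6 and CAST, aged 18 to 20 months. Chromatin was assayed by DNase-seq, which sequences the ends that the enzyme DNase I leaves where it cuts accessible DNA. There was 1 group with 2 libraries, called biological replicates 1 and 2, and no other age or tissue, so no condition was compared. The labels list a biosample each under a shared donor entry and do not say whether these were separate animals, so the spread between libraries may be technical. The tissue was not sorted, so a weaker site in every cell cannot be told apart from a site that is open in fewer cells.

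FOXL2 is a forkhead transcription factor of ovarian granulosa cells, the somatic cells that surround and support the oocyte. In mice it is needed to keep granulosa cells from taking on features of Sertoli cells, the supporting cells of the testis. In humans, mutations of FOXL2 cause a syndrome of eyelid malformation with early loss of ovarian function in some patients, and deletions outside the coding sequence can do so too. The mouse gene has a single exon and shares its start with Foxl2os, a long noncoding RNA gene on the other strand. In the GENCODE annotation both transcripts overlap over 12 bp, whereas RefSeq places the Foxl2 start 319 bp further downstream. Distances here are counted from the GENCODE start at 98955288.

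Of the 5 shared sites, a pair lay at the Foxl2 start, another pair lay in the 27829 bp of intergenic DNA between Foxl2 and Faim, and the last was the promoter of Faim. Their sequences follow, since the footprints described further on are read from them. All are plus-strand reference sequence of GRCm38.p6, and capitals mark bases inside a footprint, a short stretch protected from cutting, in both libraries. For the promoter site and the Faim site, the stretch before the annotated start is shown.
Upstream site, chr9:98954741-98954960: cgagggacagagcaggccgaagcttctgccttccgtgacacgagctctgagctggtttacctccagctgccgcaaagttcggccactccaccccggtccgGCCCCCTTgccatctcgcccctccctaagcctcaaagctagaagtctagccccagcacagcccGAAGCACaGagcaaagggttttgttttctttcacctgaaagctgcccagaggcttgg
Promoter site, chr9:98955141-98955287: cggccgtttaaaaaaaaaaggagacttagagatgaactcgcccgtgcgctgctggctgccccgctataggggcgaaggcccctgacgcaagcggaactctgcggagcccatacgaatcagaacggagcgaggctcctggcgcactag
Promoter site, first footprint, chr9:98955340-98955360: GGGCGGTGGGGGGAGGGGAGA
+10 kb site, chr9:98965141-98965380: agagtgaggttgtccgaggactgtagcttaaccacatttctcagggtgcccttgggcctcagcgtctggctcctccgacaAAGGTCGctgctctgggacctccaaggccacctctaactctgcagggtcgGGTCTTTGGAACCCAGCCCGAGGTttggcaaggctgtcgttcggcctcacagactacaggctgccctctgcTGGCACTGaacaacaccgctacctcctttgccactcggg
+25 kb site, chr9:98979821-98980020: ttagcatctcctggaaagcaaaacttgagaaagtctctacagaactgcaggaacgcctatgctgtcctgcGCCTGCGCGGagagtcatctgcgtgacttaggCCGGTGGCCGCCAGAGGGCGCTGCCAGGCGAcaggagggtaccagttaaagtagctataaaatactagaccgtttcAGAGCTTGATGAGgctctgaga
Faim site, chr9:98986221-98986372: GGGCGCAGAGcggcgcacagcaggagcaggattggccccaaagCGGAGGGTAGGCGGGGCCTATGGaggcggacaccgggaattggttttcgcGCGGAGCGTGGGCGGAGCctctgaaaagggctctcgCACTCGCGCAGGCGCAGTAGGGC

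The promoter site was the wider of the pair at the gene start, with 380 bp at identical edges in both libraries (chromosome 9, 98955141 to 98955520). It ran from 147 bp before the Foxl2 start to 232 bp after it, and so covered part of the GENCODE 5′ UTR of Foxl2 and the start of the first Foxl2os exon. All of it lies before the RefSeq start of Foxl2. Its peak signal, the strength value that the authors deposited for each peak, was 3.81 in replicate 1 and 4.28 in replicate 2, or 4.05 ± 0.334 (SD, n = 2). Signal came in whole steps of 0.0108 in replicate 1 and 0.00782 in replicate 2, so these values were 354 and 548 steps; the depth behind a step is unknown. The upstream site (98954741 to 98954960) lay at -547 to -328 bp from the Foxl2 start, inside the first exon of Foxl2os. Its signal was 3.75 in replicate 1 and 3.42 in replicate 2, or 3.58 ± 0.234. The libraries ordered this pair alike, with the promoter site above the upstream site. In replicate 1 the difference was smaller than the SD of either site between the libraries, so that order does not exceed the replicate error there.

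The 180 bp between both sites belonged to no peak, but the deposited false discovery rate (FDR) of the cut rate, listed per base and lower where cutting stands out more from background, was below 0.05 at all 180 bases in both libraries. At the stricter 0.001, 65 of these bases in replicate 1 and 169 in replicate 2 passed, so the stretch around the shared start of Foxl2 and Foxl2os was continuous at 0.05 and broken at 0.001. The lowest FDR inside the promoter site was 3.35e-10 in replicate 1 and 1.04e-17 in replicate 2. Averaged over the rest of the gene, the share of bases with an FDR below 0.05 lay between that of the sites and that of the whole window. From the end of the promoter site to the 3′ end of Foxl2, 8.60% of the bases in replicate 1 and 12.8% in replicate 2 had an FDR below 0.05, against 1.40% and 1.37% of the whole window. Within the coding sequence of 1125 bp these shares were 10.7% and 22.0%, and no base in either library was below 0.001. Replicate 2 alone had a peak there, at 98955943 to 98956084 with a signal of 1.11, and in replicate 1 48 of its 142 bases had an FDR below 0.05. All other such bases of replicate 1 past the promoter site lay before this peak. None lay between it and the 3′ end of Foxl2, so the shares of replicate 1 do not describe an even level along the gene.

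**Figure D1:**
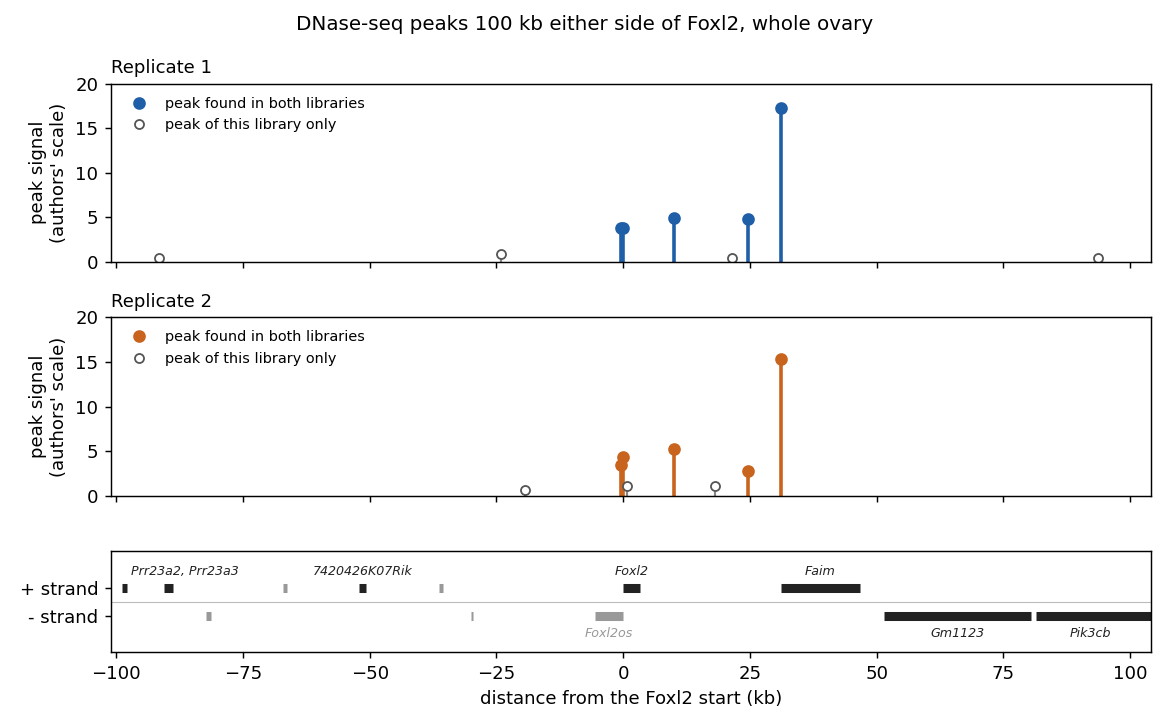
Peaks 100 kb either side of Foxl2 in each library, as peak signal (authors' scale, vertical axis) against distance from the Foxl2 start (kb, horizontal axis). Filled points are peaks found in both libraries and open points those of 1 library; the lowest panel shows genes by strand, with noncoding genes and pseudogenes in grey. All 5 shared sites lie between -547 and 31172 bp from that start, and each has a higher signal than every peak of a single library.

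Both intergenic sites lay on the 3′ side of the gene. The +10 kb site (98965141 to 98965380) began 6598 bp after the end of Foxl2 and ended 20993 bp before the start of Faim. Its signal was 4.92 in replicate 1 and 5.21 in replicate 2, or 5.06 ± 0.202 (SD, n = 2), and in both libraries this was above the signal at the Foxl2 promoter. The +25 kb site (98979821 to 98980020) began 21278 bp after Foxl2 and ended 6353 bp before Faim. Its signal was 4.79 in replicate 1 and 2.78 in replicate 2, or 3.79 ± 1.42, the widest spread of the 5 sites relative to the mean. Replicate 2 was thus at 0.581 times replicate 1, and 17.1% of the 64875 shared regions of autosomes and X had a ratio at least as far from the median ratio.

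The order of the libraries at the +25 kb site depended on the measure. By signal it ranked above 90.6% of shared regions in replicate 1 and 82.4% in replicate 2. By the lowest FDR inside the site, which was 3.39e-10 in replicate 1 and 4.01e-38 in replicate 2, it ranked above 59.5% and 89.5% of them. At the +10 kb site the lowest FDR was 2.89e-13 and 1.26e-16, and the ranks were 68.0% and 78.2%. The lowest FDR was lower in replicate 2 at all 5 sites, whereas the signal was higher in replicate 1 at the +25 kb, upstream and Faim sites. Over all shared regions the median of the lowest FDR was lower in replicate 1, at 7.05e-08 against 2.29e-06 in replicate 2. The cause of the opposed order of signal and lowest FDR at these sites was not tested.

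The strongest site of the locus was at the start of Faim, which encodes Fas apoptotic inhibitory molecule, a protein that protects cells from death receptor signals. This site (98986221 to 98986460) had a signal of 17.2 in replicate 1 and 15.3 in replicate 2, or 16.3 ± 1.36 (SD, n = 2). It was peak number 40 of 95898 by signal in replicate 1 and number 662 of 83982 in replicate 2. The Faim start is 31085 bp from that of Foxl2 and on the same strand.

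**Figure D2:**
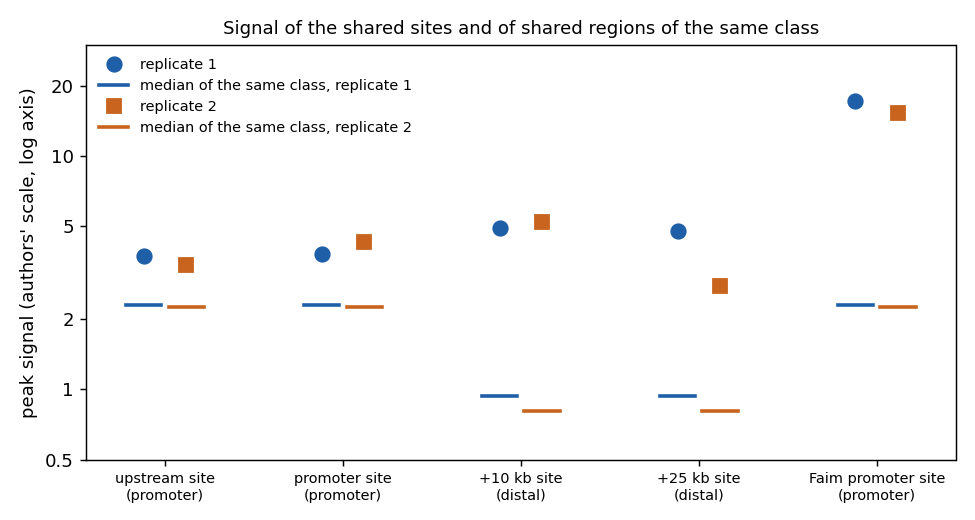
Peak signal (authors' scale, log axis) of the 5 shared sites in replicate 1 (circles) and replicate 2 (squares). Short lines give the median signal of all shared regions of the same class in that library, for promoter regions (2.29 and 2.27) and distal regions (0.937 and 0.805); every site lies above the median of its class.

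The rank of the Foxl2 promoter in the genome depended on what it was set against. The promoter peak of a gene was the strongest peak within 500 bp of any of its annotated starts. A gene with several starts was thus scored by its strongest. Of 21728 protein-coding genes, 62.3% had a promoter peak in both libraries. The Foxl2 promoter signal exceeded that of 50.2% of the genes with a promoter peak in replicate 1 and 53.1% in replicate 2, where the medians were 3.78 and 3.88. Faim exceeded 99.8% and 94.9%. As a region, the promoter site was above 65.6% and 68.0% of the 19391 shared regions at promoters. Over all shared regions it was above 87.1% in replicate 1 and 88.6% in replicate 2, which in replicate 2 was higher than the rank of the +25 kb site given earlier. Distal regions, defined as shared regions more than 2 kb from any protein-coding start, numbered 40065. The +10 kb site was above 98.3% of them in replicate 1 and 98.5% in replicate 2, and the +25 kb site above 98.2% and 94.2%. These ranks describe the libraries and are not tests.

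Outside the stretch from the upstream site to the Faim site, no peak was shared. The 99453 bp on the 5′ side of the upstream site held 2 peaks of replicate 1 and 1 of replicate 2. In this stretch 0.322% of bases in replicate 1 and 0.228% in replicate 2 had an FDR below 0.05, against 4.12% and 4.01% between Foxl2 and Faim. The first stretch was delimited by a site and holds no shared site by construction. The second was delimited by the annotated Foxl2 end and Faim start, and so takes in part of the Faim site. Of its 1146 and 1115 bases with an FDR below 0.05, 592 in each library lie in shared sites. Of 11 annotated genes with a start in the window, Foxl2, Foxl2os and Faim had a promoter peak in both libraries. The other 8 had none in either library: the protein-coding genes Prr23a2, Prr23a3, 7420426K07Rik and Gm1123 and 4 processed pseudogenes. Prr23a2 and Prr23a3 are related copies, and how reads shared between copies were treated is not stated, so their missing peaks are uncertain. On the 3′ side of the Faim site, 72083 bp of DNA with Gm1123 and the end of Pik3cb held 1 peak, in an intron of Pik3cb in replicate 1.

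Other genes were counted in the same way, with windows that differ in width by the length of the gene. Over all 21728 protein-coding genes, the gene body and 100 kb either side held a median of 11 shared regions, with quartiles of 5 and 17. Fewer than the 5 of Foxl2 were found at 23.3% of the genes and more at 73.0%. The share with fewer was 37.2% with 50 kb either side and 39.8% with 200 kb. Neighbouring genes share regions in this count.

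The peaks of a single library had lower signals than each of the 5 shared sites. In replicate 1 there were 4, with signals from 0.420 to 0.829, and in replicate 2 there were 3, from 0.672 to 1.11. Compared with all peaks of their own library, 4 of the 7 lay below the median, and the others were above 51.3% of peaks in replicate 1 and above 63.8% and 64.7% in replicate 2. At 6 of these 7, the other library had no base with an FDR below 0.05; the exception was the peak in the Foxl2 coding sequence. None of the 7 was in the shorter peak list that was deposited for its library, whereas all 5 shared sites were in the shorter lists of both. The matching shares over all peaks of a single library and all shared regions were not computed. These counts therefore describe only the peaks of this window. Of the peaks in the window, 55.6% of replicate 1 (5 of 9) and 62.5% of replicate 2 (5 of 8) were shared, against 68.9% and 78.5% of all peaks of these libraries.

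Footprints were called in all 5 shared sites in both libraries, as in 77.4% of the shared regions of the genome. The sites held 19 footprints in replicate 1 and 20 in replicate 2. Of these, 17 in replicate 1 (89.5%) and 16 of the 20 in replicate 2 overlapped a footprint of the other library by at least 1 bp, against 58.0% and 51.1% of footprints in all shared regions. The footprints of the sites had a median width of 13 bp in each library, against 10 bp over all footprints. Shares among regions of similar signal or footprint width were not computed. The footprints with such an overlap are described next. They merged into 16 protected stretches seen in both libraries: 2 at the upstream site, 2 at the promoter site, 3 at the +10 kb site, 3 at the +25 kb site and 6 at the Faim site. The edges of these stretches differed between the libraries by a median of 2 bp and at most 11 bp, and 24 of 32 edges lay within 3 bp. Outside the shared sites there were 5 footprints in replicate 1 and 8 in replicate 2, and none of them overlapped. Most of them lay in peaks of a single library. The share that overlaps among all footprints outside shared regions was not computed, so this count is no trait of the locus.

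**Figure D3:**
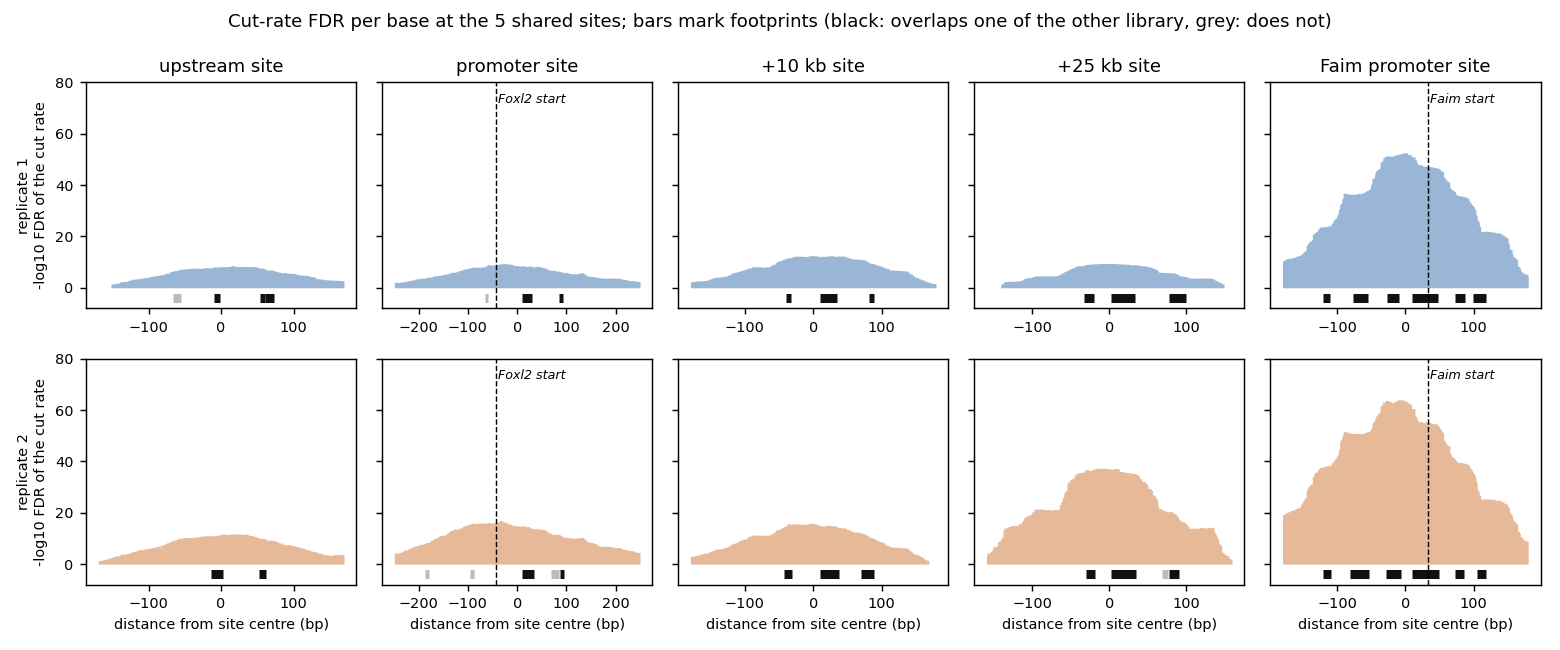
FDR of the cut rate per base, as -log10 (vertical axis), against distance from the centre of each shared site (bp, horizontal axis), with replicate 1 above replicate 2. Bars under each track mark footprints, black where they overlap a footprint of the other library and grey where they do not; dashed lines mark gene starts. The +25 kb site reaches 9.47 in replicate 1 and 37.4 in replicate 2, and the Faim site 52.7 and 64.4.

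At the Foxl2 promoter both shared footprints lay after the GENCODE start, in the 5′ UTR of that annotation. Both lie before the RefSeq start at 98955607. The first, 52 to 76 bp past the start, was 21 bp wide in replicate 1 and 25 bp in replicate 2. It began at the same base in both and opened with GGGCGG, the core bound by SP and KLF factors, which act at many GC-rich promoters. The second, 127 to 138 bp past the start, was 9 and 10 bp wide. The promoter site held 3 matches of GGGCGG on either strand, of which 1 lay in footprints of both libraries and the others in a footprint of replicate 2. Of the 5012 shared regions at least 380 bp wide, cut to that length around their centre, 53.2% held a match, so it is common at regions of this length. Footprints covered 9.74% of the promoter site in replicate 1 and 17.6% in replicate 2, against 51.2% and 52.5% of the Faim site. At the upstream site they covered 16.8% and 12.3%. Besides the 2 shared stretches, the share of replicate 1 includes a footprint of 10 bp that overlapped none of replicate 2. The upstream site held no match of any sequence searched.

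The widest protected stretch of the locus was at the Faim site, with 39 bp in replicate 1 and 40 bp in replicate 2, and the next was at the +25 kb site. In the middle of the +25 kb site a footprint of 31 bp in replicate 1 and 33 bp in replicate 2 began at the same base and ended 2 bp apart. Footprints at least 31 bp wide made up 4.08% of all footprints in replicate 1, and those at least 33 bp wide 2.15% in replicate 2. The capitals of this stretch in the sequence above contain CCGCCAGAGGGC on the plus strand. It matches a relaxed form of the consensus of CTCF, a zinc finger protein that helps to fold chromatin into loops. The relaxed form leaves the third letter of the stricter consensus free. It was added after the sequences were seen, because the stricter form had no match at this site. Of the 50315 shared regions at least 200 bp wide, cut to that length, 13.9% held the relaxed form, as did 17.2% of all shared regions at their full width.

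The +10 kb site held a CTCF match as well, on the minus strand, and there the stricter form matched. Its plus-strand letters are GCCCTCTGCTGG, and they ended inside the last footprint, which was 8 bp wide in replicate 1 and 19 bp in replicate 2 and covered the match fully in replicate 2 only. Of the 27232 shared regions at least 240 bp wide, cut to that length, 3.83% held the stricter form. Over all shared regions, 68.0% of matches to the stricter form and 54.1% of those to the relaxed form, which includes it, touched footprints of both libraries. The matches at the intergenic sites lay on opposite strands, in sites whose centres were 14660 bp apart. A further match of both forms lay at the promoter site, 5 bp past the Foxl2 start, and touched no footprint of either library.

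The widest footprint of the +10 kb site, in its centre, was 24 bp in replicate 1 and 27 bp in replicate 2 and began at the same base. It contained no full match. A match of TTGCNNAA, bound by C/EBP factors, overlapped its 3′ edge, and 8.93% of regions of this length held that sequence. The first footprint of the site, 7 bp and 11 bp wide, overlapped a match of ACAAAG, a core bound by SOX factors, which 14.1% of such regions held. A match of TGTGGT, the RUNX core, lay outside footprints. At the +25 kb site the first footprint overlapped GCGCCTGCGC, which on the minus strand matches a relaxed form of the NRF1 consensus, also added after the sequences were seen. Of regions of this length 2.96% held it. That form also matched at the Faim site, inside its widest footprint in both libraries. Over all shared regions, 80.4% of matches to the relaxed NRF1 form touched footprints of both libraries.

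In all, 27 sequences were searched without mismatch on both strands, and 17 had no match in any of the 5 sites. Among these were the forkhead sequences TGTTTAC, held by 3.38% of all shared regions, and TAAACA, held by 10.4%. CAAGGTCA of NR5A receptors was held by 5.36% and AGGTCA of nuclear receptors, which it contains, by 19.8%. AGATAA of GATA factors was held by 11.2%, GGAATG of TEAD factors by 13.4% and TGANTCA of AP-1 by 11.3%. These letters are thus not in the 5 windows, which says nothing about binding of the factors.

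The sites also differed in base composition. The promoter site was 67.6% G and C, with an observed-to-expected CpG ratio of 0.823 and 35 CpGs, and the Faim site 71.7% with a ratio of 0.950. The upstream site and the +10 kb site had equal shares of G and C, at 60%, with ratios of 0.522 and 0.466. The +25 kb site was lowest in G and C, at 53.5%, with a ratio of 0.706. Soft-masked repeat bases made up 20.0% of the promoter site, 13.2% of the upstream site, 9.17% of the +10 kb site and none of the +25 kb and Faim sites.

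Foxl2 was next set beside 19 other granulosa cell genes. Of the whole list of 20, 19 had a promoter peak in both libraries, beside 62.3% of all protein-coding genes, and Fshr, whose product binds follicle-stimulating hormone, in replicate 2 only, at 0.430. Gata4, Runx1 and Inha had a higher promoter signal than Foxl2 in both libraries, and 13 genes a lower one in both. The strongest Gata4 and Runx1 peaks lay at internal annotated starts. By distance of log2 signal over both libraries, the 5 genes closest to Foxl2 among 18 were Nr5a1 (0.0742), Gja1 (0.204), Wt1 (0.332), Inha (0.473) and Kitl (0.554). Nr5a1, the gene of a nuclear receptor that drives steroid synthesis, had 3.65 in replicate 1 and 4.17 in replicate 2. It was below Foxl2 in both libraries, by less than the SD of either gene between libraries. Both genes were higher in replicate 2, so that SD does not measure the error of their difference within a library. Wt1, a zinc finger factor of the gonadal ridge, had 3.15 and 4.88, so it was below Foxl2 in replicate 1 and above it in replicate 2. This likeness rests on 2 values per gene. With 5 shared regions in its window of 100 kb either side, Foxl2 had fewer than each of these 5: Kitl had 6, Wt1 9, Gja1 12, Nr5a1 16 and Inha 23. Among the other granulosa genes compared, Cyp19a1 with 4, Inhba with 3 and Nr0b1 with 1 had fewer than Foxl2.

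**Figure D4:**
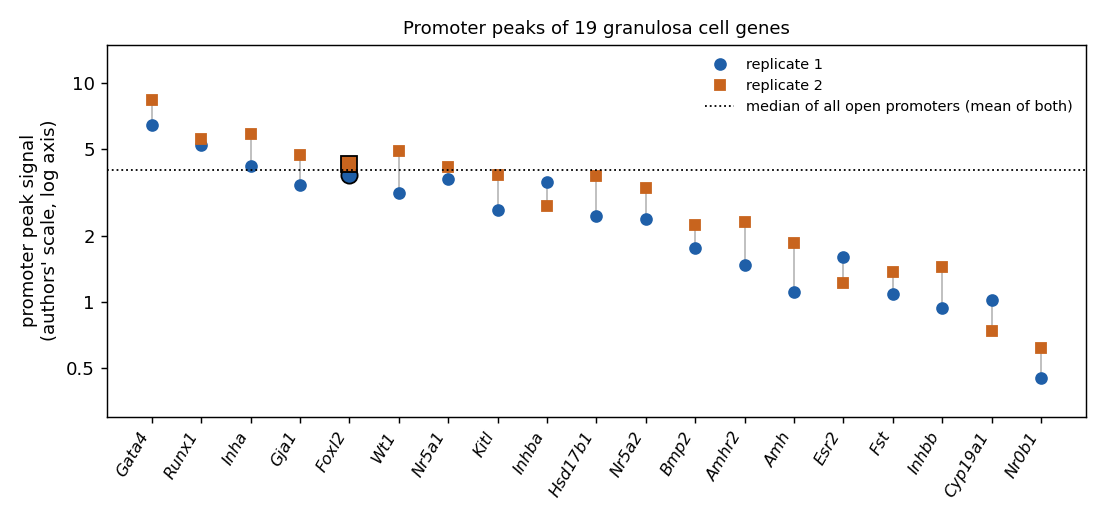
Promoter peak signal (authors' scale, log axis) of 19 granulosa cell genes with a promoter peak in both libraries, ordered by their mean, with replicate 1 as circles and replicate 2 as squares. The dotted line is the median of all open promoters (4.03); Foxl2, outlined, has 3.81 and 4.28.

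Partners and reported targets of FOXL2 were described in the same way. Of 21 such genes 19 had a promoter peak in both libraries, beside 62.3% of all protein-coding genes, with a median signal of 3.26, against 4.03 over all 13529 open genes. Esr1 was counted through different peaks, 804 bp from the 5′ end of the gene in replicate 1 and 98388 bp in replicate 2. Runx1 and Ccnd2 were counted through peaks at internal annotated starts. Smad3 and Smad4, which carry activin and TGF-beta signals and act with FOXL2 at the follistatin gene Fst, had 10.7 ± 4.48 and 9.01 ± 0.392 (SD, n = 2), both above Foxl2 in each library. Fst itself had 1.23 ± 0.204 and Cyp19a1, the aromatase gene, 0.883 ± 0.198, at an internal annotated start. Wnt4, a signal of ovarian development, had 3.37 ± 0.402, whereas Rspo1, which enhances WNT signals, had 0.581 in replicate 1 and no peak in replicate 2. Sox9, a testis factor that FOXL2 is known to repress, had 3.26 ± 0.0785, and the testis factor Dmrt1 had no promoter peak in either library. The forkhead genes Foxo1 and Foxo3 had 3.45 ± 0.197 and 4.50 ± 0.616.

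Among 44 forkhead genes, 23 had a promoter peak in both libraries and 19 in neither, beside 62.3% of all protein-coding genes with a peak in both. Foxl2 was number 7 of these 23 by mean signal. Foxo6, Foxn2, Foxj1, Foxj3 and Foxo3 were above it in both libraries, and 14 genes were below it in both. Foxl1, which shares its family letter, had no promoter peak in either library.

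Marker genes of other cell types were counted beside the same 62.3% of all protein-coding genes. A promoter peak shows openness and not expression, and no difference between these short lists was tested. Of 12 oocyte genes 3 had a peak in both libraries, of 6 theca and steroidogenic genes 4, of 5 stromal genes 4, of 4 endothelial genes 2 and of 5 immune genes none. Of 4 Sertoli genes 3 did, of 3 skin genes 1 and of 3 liver genes none. Some of the counted peaks lay at internal annotated starts and not at the 5′ end of the gene. In replicate 1 the peak was 8470 bp from that end at Cyp11a1, 3969 bp at Pdgfra and 4474 bp at Krt1, the skin gene counted. It was 857 bp from that end at Col1a1 and 716 bp at Dazl, 1 of the 3 oocyte genes counted. The part of these cells in the signal at Foxl2 was not tested.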

How the data were processed

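Each library was deposited with a longer and a shorter list of narrow peaks, footprints and FDR values of the cut rate, on mm10. Per the text files beside them, all derive from the alignments of that library, with no pooled replicates. Which aligner and callers were used, how peak signal was scaled and how CAST alleles were mapped was not given in the sources used here. Deposited peak signal took distinct values that were whole multiples (100%, within 0.05 of a step) of a step that differed by library. Deposited peaks carry no p-value; the deposited FDR is listed below 0.05 only, and every deposited footprint has the p-value label 0.01, of unstated kind.

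The longer peak lists were used. Peaks or footprints sharing at least 1 bp were merged into shared regions. Percentiles give the share of peaks, regions or genes with a lower value. Genes were those of GENCODE M21 and sequences those of RefSeq GRCm38.p6; the peaks of 20 chromosomes lie inside its chromosome lengths. Python 3.11.15, NumPy 2.4.6, pandas 2.3.3, pysam 0.24.0 and Matplotlib 3.10.9 were used, and overlap and sequence searches were tested on simulated data. With 1 group, nothing was tested between groups, and values are descriptions with their SD over 2 libraries. The locus, the gene lists and the sequences were chosen with earlier results of these data known. Genes named are Foxl2, those of the window, the 5 granulosa genes closest to it, listed partners and targets, and the forkhead family; others among the listed genes were named after their values were seen.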

Additional observations from a re-analysis of the deposited data

How the results depend on the processing

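The number of shared sites at Foxl2 stayed at 5 with the shorter peak lists, a reciprocal overlap of at least 50%, equal numbers of peaks and 50 kb either side, and so did the number with footprints in both libraries. The promoter signal was 4.05 with the shorter lists and with promoters of 2000 bp either side, and 3.81 to 4.28 over single libraries. With 200 kb either side there were 16 shared sites, 14 of them with footprints in both libraries, and 27 shared footprint stretches in place of 16. A reciprocal overlap of at least 50% left 14 of these 16 stretches. Single libraries, where nothing can be shared, gave 8 to 9 sites, 8 with a footprint in either library, and 22 to 25 footprints. The share of genes with fewer shared regions than Foxl2, 23.3%, became 33.1% with the shorter lists, 25.8% with the reciprocal overlap, 24.8% with equal numbers, 37.2% with 50 kb, 39.8% with 200 kb and 26.1% to 28.6% with single libraries. A CTCF match touching footprints of both libraries was found at 1 site with the stricter form and at 2 with the relaxed form, which was chosen after seeing the data. No paired analysis was possible because there is a single group. The depth of the libraries is unknown, which limits what a missing peak can show.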
